A study of Canis lupus familiaris with 39 samples.

Results

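Glycolysis splits glucose into pyruvate and lactate, gluconeogenesis rebuilds glucose, and glycogen synthases and phosphorylases fill and empty the glucose store of a cell. A set of 32 genes coding for the isozymes of these steps was examined across the canine organs. Members were found by their symbol: a probeset of the Affymetrix Canine Version 2.0 array was used where the probe gene table gave it a listed gene as its only symbol. This located 31 of the 32 genes, among 15115 genes with such a probeset on the array. LDHB, the heart type lactate dehydrogenase, had probesets that carry several symbols and was not analysed here. The 31 genes had 65 probesets. For the 20 genes with more than 1 probeset, the one that was brightest on average stood for the gene.

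Many steps of these pathways can be carried out by related enzymes coded by different genes, called isozymes. They catalyse the same reaction but differ in regulation and in the organs that use them, so that muscle, liver and brain are each known for isozymes of their own. Liver and kidney release glucose into the blood and carry the enzymes that bypass the irreversible steps of glycolysis. Striated muscle burns or ferments its own glycogen, and the brain depends on a steady supply of glucose.

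RNA came from 10 pathologically normal organs of beagles and mixed-breed dogs of both sexes: brain (cerebrum), heart, jejunum, kidney, liver, lung, lymph node (peripheral), pancreas, skeletal muscle and spleen. The study gives ages from a few months to several years, and the labels name neither a treatment nor a genotype. Each organ had 4 arrays and pancreas had 3, giving 39 in all. All organs were taken from the same 4 dogs, so arrays of different organs share animals. The labels number the arrays within an organ without stating that a number marks a dog. The tests treated the arrays as independent samples, and their p-values leave the shared animals out.

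Values are log2 signals as the authors deposited them, and the median of every array lay between 3.95 and 4.11. A value near 4 is therefore the level of most probesets, and differences against such a value are compressed. Because probesets differ in how brightly they bind, the level of a gene was compared only with its own level in other organs. Isozymes of a step were compared through their log2 ratio on the same array. Whole organ pieces were measured, so that fewer cells of a type and less RNA per cell cannot be told apart.

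Markers of each organ were highest in that organ for all measured genes of 9 organs and for 3 of 4 in spleen, although only 2 of 4 heart markers were measured. Several arrays also carried markers of another organ. Skeletal muscle arrays 1, 3 and 4 held the pancreatic lipase gene PNLIP at 7.9, 9.2 and 11.1, against 4.0 on array 2. Albumin (ALB) was measured at 11.0 and 11.1 on lung arrays 1 and 3, at 10.8 on heart array 2 and at 7.9 on heart array 1. Brain arrays 1 and 3 held the fast muscle gene MYLPF at 6.0 and 8.2, lymph node array 4 held PNLIP at 5.9, and spleen array 1 held the kidney gene UMOD at 6.9. Heart array 1 also held UMOD at 7.29 and the lung gene SFTPC at 7.34. Named calls that ended when these 11 arrays were left out are given with the organ counts. Lower ALB signals, at 7.58 on kidney array 2, at 6.73 and 7.32 on spleen arrays 2 and 4 and at 6.03 to 7.02 on the pancreas arrays, were kept in, so the remaining arrays are not free of foreign markers. That alternative, and one that kept skeletal muscle array 2 alone, were chosen after the data were seen.

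Organ differences covered nearly the whole set. The moderated F test of limma called 30 of the 31 members at a false discovery rate of 0.001, where 60.9% of all genes were called. The exception was HK2, a hexokinase that traps glucose in the cell as glucose 6-phosphate, at adjusted p = 0.00127. Organ means of a member spanned a median of 4.73 on the log2 scale, while the median over all genes was 1.28. The members were also brighter, with a median level of 6.34 against 4.46 for all genes, where differences are compressed. The range was 8.48 for PYGM, the muscle glycogen phosphorylase, and 0.56 for HK3, a hexokinase known from blood cells. Skeletal muscle held the highest mean of 12 members, liver of 5, brain of 4, heart and kidney of 3 each, jejunum of 2, and lung and pancreas of 1 each. Pancreas held the lowest mean of 8 members and liver of 6.

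**Figure D1:**
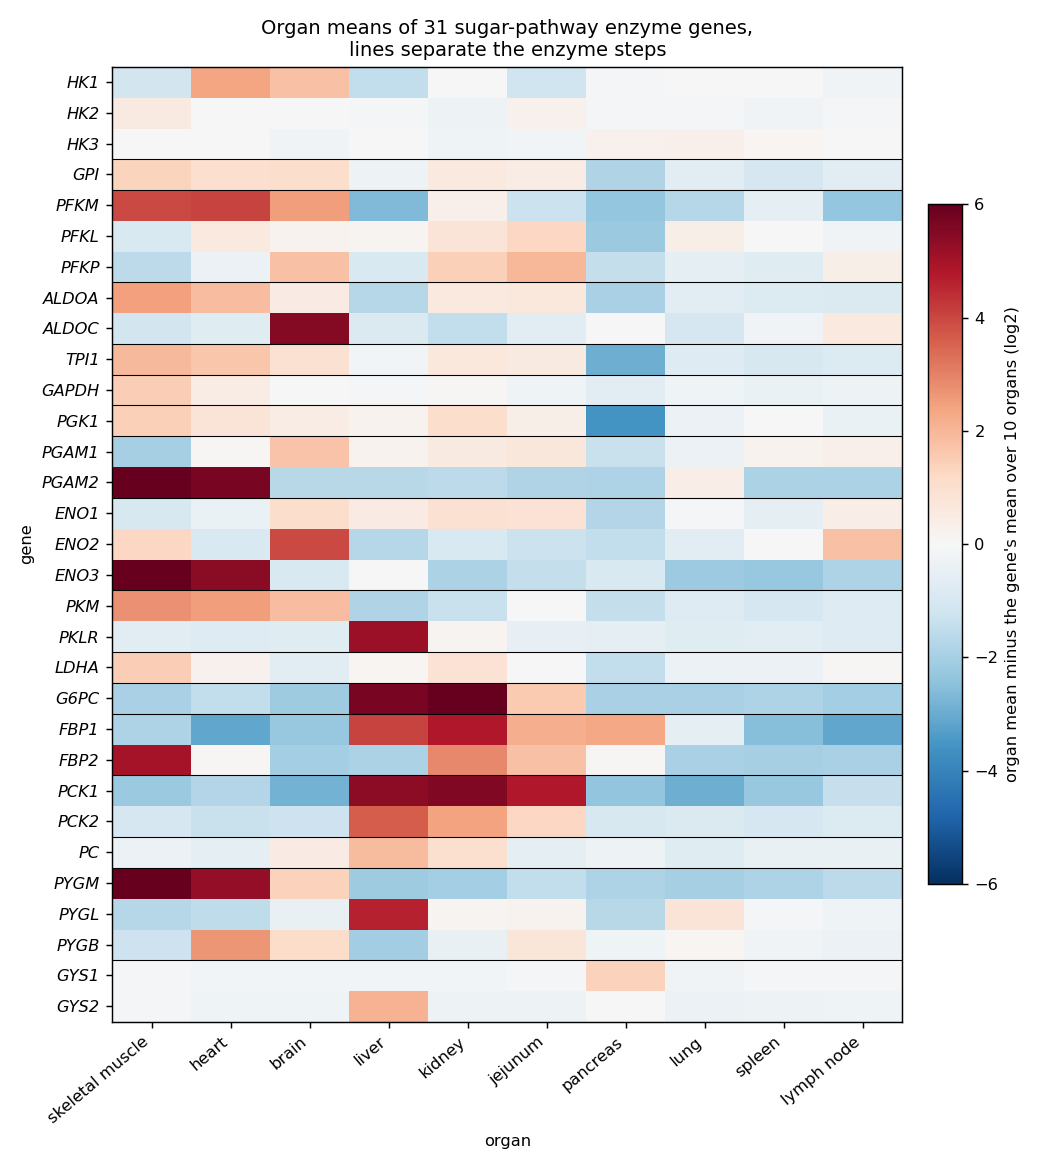
Mean log2 signal of each of the 31 members (rows, with lines between enzyme steps) in each of the 10 organs (columns), drawn as the difference from the gene's own mean over the 10 organs in log2 units, red for higher and blue for lower, with the colour scale ending at 6 on either side. PGAM2, ENO3 and PYGM were far above their own mean in skeletal muscle and heart, and G6PC, FBP1 and PCK1 in liver and kidney.

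A high organ often had a close runner-up. The highest organ passed against the second for 10 of 31 members, where 14.3% of all genes did so. These were ALDOC, PGAM1 and ENO2 in brain, PKLR, PCK2, PYGL and GYS2 in liver, FBP2 in skeletal muscle, PYGB in heart and GYS1 in pancreas. Without the 11 arrays with foreign markers 7 passed, and PGAM1 and ENO2 in brain (adjusted p = 0.00163 and 0.00115) and PYGB in heart (0.0176) did not. With arrays set to equal medians of 12 housekeeping genes, PCK2 in liver over kidney did not pass, at an adjusted p just above 0.001. Every array of the highest organ lay above every other array for 14 of 31 members, and 18.1% of all genes had this property.

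The first step of glycolysis is the phosphorylation of glucose by hexokinases. HK1, the widespread form that docks on mitochondria, was measured on the heart arrays at 7.73, 7.39, 7.87 and 8.47, and on the brain arrays at 6.73, 6.74, 7.30 and 8.23. The heart and brain arrays overlapped, and neither organ overlapped with skeletal muscle, whose 4 arrays lay between 4.25 and 4.49. The heart mean of 7.87 ± 0.45 (SD, n = 4) was 6.23-fold above the mean of the other 9 organs (log2 difference 2.64, SE 0.23, limma adjusted p = 7.22e-11). Brain was 3.88-fold above the other organs (adjusted p = 2.43e-08), while heart over brain did not pass (adjusted p = 0.164). HK1 was lower in liver at 3.99, in jejunum at 4.32 and in skeletal muscle at 4.40, the last 3 organs in its order, and no neighbouring pair among these passed.

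HK2, the insulin-responsive hexokinase of muscle, was dim throughout. Skeletal muscle gave 5.23, 5.40, 6.0 and 5.62, which overlapped with jejunum at 5.03 to 5.66. The contrast of skeletal muscle with the other organs passed at 1.52-fold (adjusted p = 0.000204), but not when array 2 was the only skeletal muscle array (log2 difference 0.44, adjusted p = 0.247), without skeletal muscle array 3 (0.45, 0.00813) or without array 4 (0.58, 0.00189). HK3 had its highest mean in lung at 4.66 ± 0.13 (SD, n = 4), near background, and no organ passed for it. Its lung difference (0.35 on the log2 scale, adjusted p = 0.00162) passed with equal array medians, with the replicate block and without pancreas array 2, pancreas array 3 or spleen array 3 (adjusted p 0.000283 to 0.00087), and turned to -0.41 with housekeeping medians (adjusted p = 0.0807). Myeloid marker genes averaged 6.4 to 7.0 on the lung arrays and 7.9 to 8.0 on the spleen arrays, where HK3 was measured at 4.26 to 4.71.

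The balance of the hexokinases differed between organs. The log2 ratio of HK2 to HK1 averaged -2.81 ± 0.58 (SD, n = 4) in heart and -0.20 over all other arrays (exact permutation test, two-sided, adjusted p = 0.00139). The brain arrays, at -3.20 to -1.80, overlapped with heart. In skeletal muscle the ratio averaged 1.17, and the jejunum arrays (0.75 to 1.21) and liver arrays (0.71 to 1.24) overlapped with it. Every skeletal muscle array (0.74 to 1.59) lay above every heart array (-3.56 to -2.17), and the adjusted p of 0.0571 is the smallest value that 4 against 4 arrays gave among the 14 ratios compared.

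GPI, which turns glucose 6-phosphate into fructose 6-phosphate, has no isozyme and was bright in every organ. Its means ran from 8.42 in pancreas to 11.55 in skeletal muscle. Skeletal muscle, brain and heart rose by 2.79-fold, 2.23-fold and 2.14-fold over the other organs, and pancreas and spleen fell.

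Phosphofructokinase commits sugar to glycolysis, and its muscle (PFKM), liver (PFKL) and platelet (PFKP) subunits had different organ patterns. PFKM was measured at 12.60, 12.69, 12.49 and 12.28 in heart and at 11.77, 12.73, 12.04 and 13.25 in skeletal muscle. Brain followed at 10.56 to 11.33, below every array of both muscles. Heart stood 22.6-fold and skeletal muscle 21.5-fold above the other 9 organs (adjusted p = 1.71e-17 and 3.13e-17). Heart and skeletal muscle could not be ordered (adjusted p = 0.95), whereas skeletal muscle over brain passed at 2.78-fold (adjusted p = 0.00013) and brain over kidney at 4.62-fold. Liver had the lowest PFKM mean, 5.82 ± 0.33 (SD, n = 4).

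Organ means of PFKL spanned 3.48 on the log2 scale, close to the 3.58 of PFKP. Its arrays in jejunum read 8.40, 8.24, 8.41 and 7.87, and the kidney arrays, at 6.89 to 8.50, overlapped with them. Jejunum rose 2.64-fold over the other organs (adjusted p = 0.00018), a call that did not hold without jejunum arrays 1, 2 or 3 in turn (adjusted p 0.00142 to 0.00207) without the 11 arrays with foreign markers (0.00171) or with housekeeping medians (log2 difference 1.04, adjusted p = 0.00536). In liver, the organ that names this subunit, PFKL averaged 7.14 and the contrast gave a log2 difference of 0.19 (adjusted p = 0.687). Pancreas was lowest at 4.75, a log2 difference of -2.47 (adjusted p = 1.09e-07).

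PFKP rose in jejunum (4.66-fold), brain (3.85-fold) and kidney (3.01-fold). The arrays of these organs lay between 6.43 and 8.33 and overlapped. In skeletal muscle PFKP was measured at 4.36, 4.40, 3.91 and 4.09, near background, with a log2 difference of -1.76 (adjusted p = 3.6e-05). The ratio of PFKM to PFKL averaged 6.39 ± 1.01 (SD, n = 4) in skeletal muscle and 0.94 elsewhere (exact permutation test, adjusted p = 0.000486). The heart arrays, at 4.32 to 5.55, overlapped with skeletal muscle (5.31 to 7.68), and the brain arrays lay at 3.41 to 4.31. The ratio of PFKP to PFKL was 0.33 in brain and -1.40 elsewhere (exact permutation test, adjusted p = 0.0028). Jejunum array 4, at 0.46, lay within the brain range (-0.04 to 0.82), with the other jejunum arrays at -1.64 to -0.16. Pancreas lay at -0.53 to -0.28.

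Aldolase cleaves fructose 1,6-bisphosphate. ALDOA, the muscle form, is also used in most other organs, while ALDOC is the brain form. ALDOA read 13.06, 13.30, 13.28 and 13.26 in skeletal muscle and 12.81, 12.39, 12.61 and 12.68 in heart. All 4 skeletal muscle arrays exceeded every other array, and heart exceeded the rest. Skeletal muscle stood 6.65-fold and heart 4.18-fold above the other organs (adjusted p = 2.57e-14 and 2e-11), but skeletal muscle over heart did not pass (1.52-fold, adjusted p = 0.107). Means of 8.80 in pancreas and 9.04 in liver were the lowest.

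ALDOC had the largest brain difference of any member. The brain arrays read 11.78, 11.73, 12.15 and 11.80, and the next organ was lymph node at 7.04, 6.04, 6.74 and 7.97. No array of any other organ came within 3 log2 units of brain. The brain mean of 11.87 ± 0.19 (SD, n = 4) was 68.5-fold above the other 9 organs (log2 difference 6.10, SE 0.23, adjusted p = 9.46e-21) and 30.3-fold above lymph node (adjusted p = 1.07e-14). A further ALDOC probeset was also highest in brain, at 11.28, and followed the first with r = 0.97 over the arrays. The ratio of ALDOC to ALDOA averaged 0.61 in brain and -5.01 elsewhere (exact permutation test, adjusted p = 0.000284), and it was lowest in skeletal muscle at -7.95, where every array lay below all others (0.0109).

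TPI1, PGK1 and GAPDH serve the middle of the pathway, and each was the only member of its step in the set. TPI1, which interconverts the triose phosphates, stood at 11.00, 11.43, 11.69 and 12.07 in skeletal muscle and at 11.04 to 11.50 in heart, and these overlapped. Both organs rose, by 4.41-fold and 3.58-fold, and brain rose by 2.0-fold (adjusted p = 0.000231). Without the 11 arrays with foreign markers, the skeletal muscle difference of TPI1 was 1.99 on the log2 scale and did not pass (adjusted p = 0.00159).

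PGK1, the first ATP-forming enzyme of the pathway, rose in skeletal muscle (3.05-fold), kidney (2.27-fold) and heart (1.79-fold). In pancreas it had the largest drop of any member. The pancreas arrays read 6.80, 5.94 and 6.15, and the lowest array of any other organ was 8.84. The log2 difference was -3.96 (SE 0.18, adjusted p = 1.49e-17). TPI1 in pancreas differed by -3.25, with arrays at 5.95, 7.07 and 7.07 below all others.

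GAPDH, whose probeset was dim at an overall mean of 4.38, rose 3.12-fold in skeletal muscle (adjusted p = 3.05e-06). The 4 arrays spread over 4.62, 5.46, 7.85 and 5.42, so that array 1 overlapped with heart (4.31 to 5.07). The dim signal limits what can be said of GAPDH levels in these organs.

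Phosphoglycerate mutase has a widespread form, PGAM1, and a muscle form, PGAM2, and they had opposite orders in striated muscle. PGAM2 was measured at 11.87, 11.95, 11.93 and 12.07 in skeletal muscle and at 11.45, 10.79, 11.43 and 11.78 in heart. Every skeletal muscle array exceeded every heart array, and both exceeded all other organs. Skeletal muscle stood 125-fold (log2 difference 6.97, SE 0.14, adjusted p = 3.02e-28) and heart 79.4-fold above the other 9 organs. With array 2 as the only skeletal muscle array the difference was again 6.97. Skeletal muscle over heart did not pass (1.51-fold, adjusted p = 0.0332).

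Lung was the third organ for PGAM2. Its arrays read 6.20, 5.25, 6.43 and 6.45, above the kidney arrays at 4.03 to 4.21 (3.89-fold, adjusted p = 3.23e-10). The measured heart markers averaged 3.8 on every lung array, fast fibre markers 4.1 to 4.6 and smooth muscle markers 8.4 to 9.7, and their part in the lung value was not tested. Kidney, liver, brain, jejunum, pancreas, lymph node and spleen had PGAM2 means between 3.77 and 4.12, the level of most probesets.

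PGAM1 was measured at 11.51, 11.88, 12.76 and 12.21 in brain, above every array of another organ. Brain rose 3.69-fold over the other organs and 2.01-fold over jejunum, the next organ (adjusted p = 0.000429). Skeletal muscle was lowest at 8.65, 7.70, 8.79 and 8.55, a log2 difference of -2.19 (adjusted p = 1.66e-12). Heart, at 10.25 to 10.63, did not share it. The ratio of PGAM2 to PGAM1 averaged 3.53 ± 0.51 (SD, n = 4) in skeletal muscle, 0.91 ± 0.26 (SD, n = 4) in heart and below -3.5 on each array of the other organs. Skeletal muscle against all other arrays gave an adjusted p of 0.000284 and heart one of 0.0175 in the exact permutation test.

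**Figure D2:**
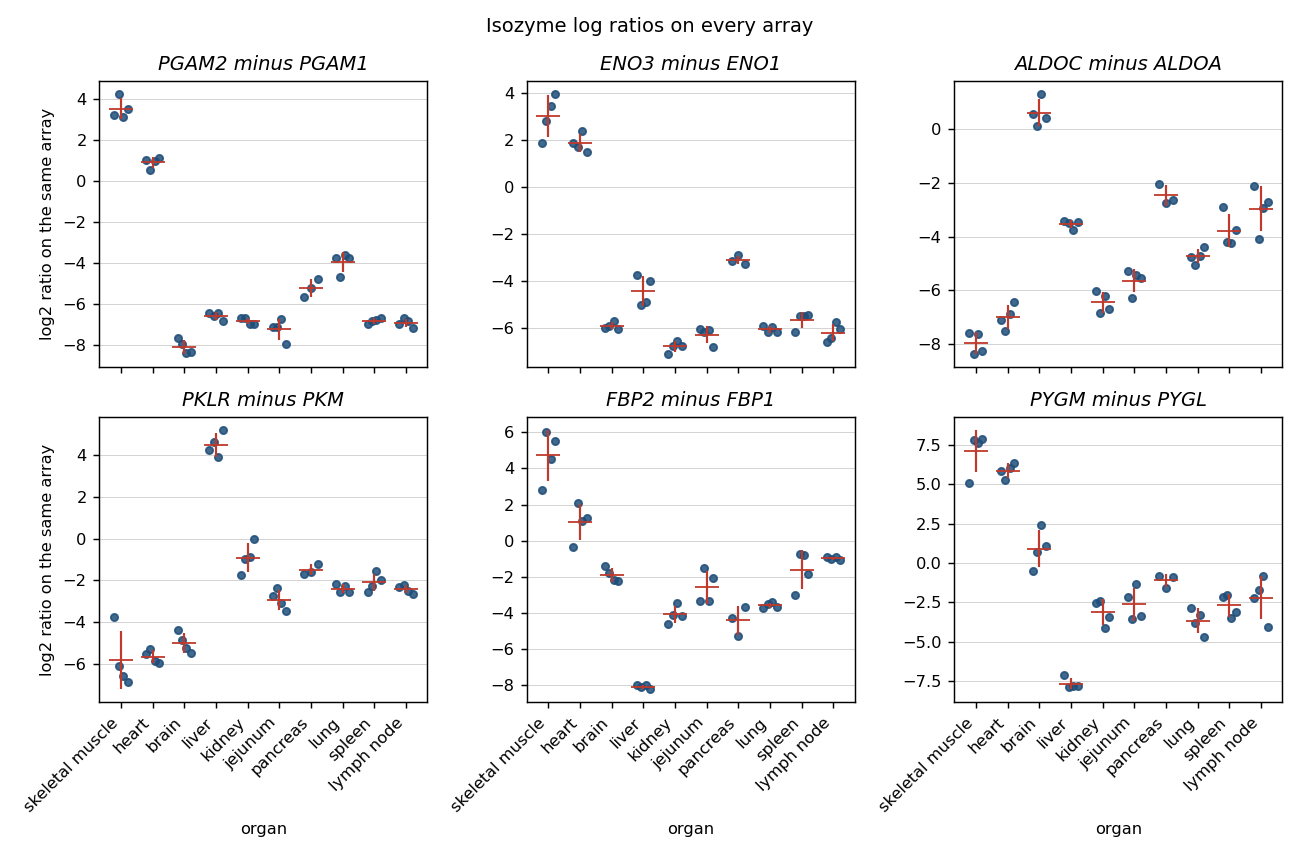
Log2 ratio of isozymes on each array (points, vertical axis, with its own range in each panel) by organ for 6 isozyme pairs, with red horizontal lines at the organ means and red vertical lines of 1 SD on either side, n = 4 arrays an organ and 3 for pancreas. The PGAM2 to PGAM1 ratio was above 0 in skeletal muscle and heart alone, the mean PKLR to PKM ratio above 0 in liver alone, and ALDOC to ALDOA above 0 in brain alone, where 0 only marks equal signal of the probesets.

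Enolase, the next enzyme, has an alpha form (ENO1) of most tissues, a gamma form (ENO2) of neurons and a beta form (ENO3) of muscle. ENO3 read 12.00, 13.25, 13.01 and 13.26 in skeletal muscle and 12.05, 12.36, 12.41 and 12.36 in heart. These overlapped through skeletal muscle array 1, and no array of another organ exceeded 7.50. Skeletal muscle stood 102-fold and heart 65.1-fold above the other organs (adjusted p = 1.66e-23 and 3.09e-22), with no call between the muscles (adjusted p = 0.187). Liver came next at 7.50, 6.02, 6.69 and 7.42, where fast fibre markers averaged 3.7 to 3.9, and exceeded kidney 3.83-fold (adjusted p = 5.01e-07).

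ENO2 was measured at 9.27, 9.95, 9.85 and 10.81 in brain. Lymph node followed at 7.00, 7.62, 8.05 and 8.30, and skeletal muscle at 6.50, 7.41, 7.60 and 7.39. Brain arrays lay above all others. Brain rose 21.4-fold (adjusted p = 1.94e-12) and was 4.68-fold above lymph node (adjusted p = 0.000212). Lymph node rose 3.85-fold (adjusted p = 3.15e-05), and brain markers averaged 3.8 to 4.5 on its arrays. That lymph node call was lost without the 11 arrays (log2 difference 1.63, adjusted p = 0.00437) and with housekeeping medians (1.04, 0.00862). The kidney arrays read 4.75, 7.02, 4.42 and 4.09, with array 2 standing apart.

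ENO1 was bright everywhere, from 9.07 in pancreas to 11.85 in brain. It rose in brain (2.23-fold), kidney (2.04-fold) and jejunum (1.97-fold) and fell in skeletal muscle and pancreas, by 1.06 and 1.94 on the log2 scale. The brain call was lost without the 11 arrays with foreign markers (log2 difference 0.90, adjusted p = 0.00262). The ratio of ENO3 to ENO1 averaged 3.02 in skeletal muscle and 1.88 in heart, and between -6.76 and -3.1 in the other organs. The ratio of ENO2 to ENO1 averaged -1.88 in brain against -5.16 elsewhere (exact permutation test, adjusted p = 0.00156). Skeletal muscle arrays 3 and 4, at -1.97 and -1.91, lay within the brain range (-2.60 to -1.06), and arrays 1 and 2 read -3.63 and -3.03.

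**Figure D3:**
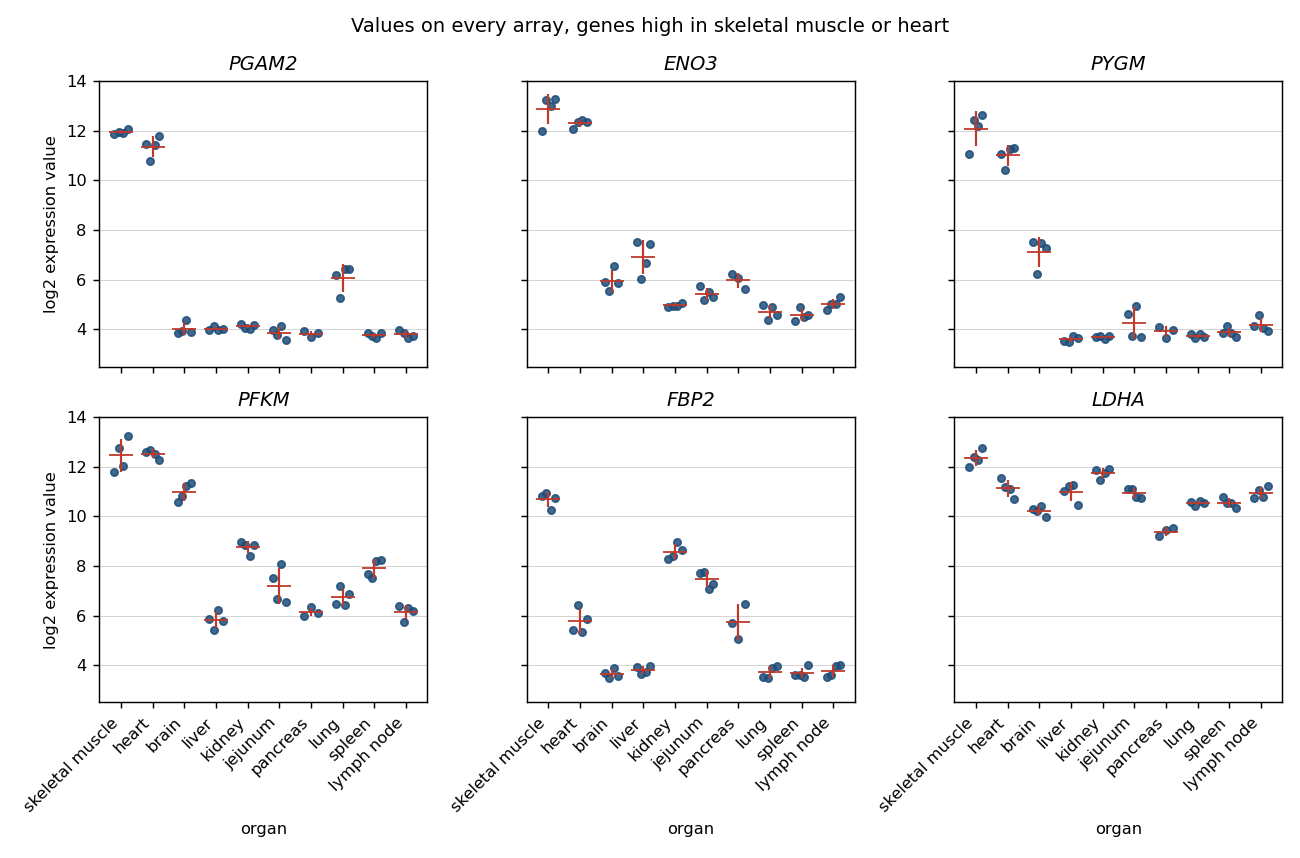
Log2 signal on each array (points, vertical axis) by organ for 6 members that were high in skeletal muscle or heart, with red horizontal lines at the organ means and red vertical lines of 1 SD on either side, n = 4 arrays an organ and 3 for pancreas. PGAM2, ENO3 and PYGM were above 10 on all 8 heart and skeletal muscle arrays.

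Pyruvate kinase forms pyruvate and ATP at the end of the pathway. PKM codes for the form of muscle, brain and most other tissues, and PKLR for the form of liver and red cells. PKM read 7.39, 9.41, 9.78 and 10.15 in skeletal muscle, 8.83, 8.57, 9.13 and 9.12 in heart and 7.60, 8.16, 8.61 and 8.71 in brain. These organs overlapped, and skeletal muscle array 1 was their lowest. They rose by 8.41-fold, 6.82-fold and 4.17-fold over the other organs, and brain over the fourth organ, jejunum, passed (3.55-fold, adjusted p = 8.34e-05). Without skeletal muscle arrays 1, 3 and 4 the skeletal muscle difference was 3.30, against 3.07 with them.

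PKLR was measured at 8.87, 8.85, 8.65 and 10.08 in liver. Kidney was next, at 3.54, 4.08, 4.0 and 5.11, and all other organ means lay below 3.6. The liver mean of 9.11 ± 0.65 (SD, n = 4) stood 51.3-fold above the other organs (adjusted p = 3.17e-24) and 30.4-fold above kidney (adjusted p = 9.12e-19). The spleen arrays, on which the 2 measured of 6 listed erythroid markers averaged 7.3 to 8.2, held PKLR at 3.26 to 3.37. PKM in liver was lowest of all organs at 4.60, and the ratio of PKLR to PKM averaged 4.51 in liver against -3.24 elsewhere (exact permutation test, adjusted p = 0.000284).

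LDHA, the muscle type lactate dehydrogenase that regenerates NAD by making lactate, was bright in all organs. It read 12.00, 12.38, 12.26 and 12.75 in skeletal muscle, and kidney came next at 11.86, 11.46, 11.74 and 11.91. Every skeletal muscle array exceeded all others. Skeletal muscle rose 3.11-fold (adjusted p = 5.46e-12) and kidney 1.95-fold (adjusted p = 3.56e-07), and the organs did not pass against each other (adjusted p = 0.0074). Brain and pancreas fell by 0.73 and 1.66 on the log2 scale.

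Gluconeogenesis starts in mitochondria with pyruvate carboxylase (PC) and continues through phosphoenolpyruvate carboxykinase, cytosolic (PCK1) or mitochondrial (PCK2). PC was measured at 5.72, 6.66, 5.90 and 7.23 in liver and at 4.66, 6.09, 5.16 and 5.92 in kidney. The arrays overlapped, and the other organ means lay below 5. Liver rose 4.32-fold and kidney 2.13-fold (adjusted p = 2.78e-10 and 6.94e-05).

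PCK1 was high in kidney, liver and jejunum. It read 11.65, 12.37, 11.06 and 12.21 in kidney, 11.27, 11.83, 12.14 and 11.30 in liver, and 11.42, 11.16, 11.13 and 10.63 in jejunum. The arrays of these organs overlapped and no neighbouring pair passed. They stood 71.1-fold, 61.7-fold and 40.4-fold above the other organs (adjusted p = 2.49e-09, 4.41e-09 and 6.11e-08). The remaining organs were near background apart from a few arrays.

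Lymph node held PCK1 at 3.50, 3.41, 3.36 and 9.40, so that array 4 alone was high. On that array the 5 adipocyte markers averaged 7.9, against 4.4 to 5.9 on the other lymph node arrays. FABP4, a fatty acid carrier of adipocytes, read 11.5 there, and 9.35, 9.34 and 4.13 on lymph node arrays 1, 2 and 3. Spleen held PCK1 at 6.4, 3.29, 3.23 and 3.17, where array 1 also carried UMOD. Heart held it at 5.90, 5.50, 3.23 and 3.55, where array 1 carried ALB, UMOD and SFTPC and array 2 carried ALB. The part of these markers in the PCK1 values was not tested. Without the 11 arrays, the kidney difference of PCK1 was 6.67, against 6.15 with them.

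Among liver, kidney and jejunum, PCK2 had a steeper order than PCK1. Over all organs the means spanned less for PCK2, 4.93 on the log2 scale against 8.44 for PCK1. PCK2 read 8.71, 8.86, 8.86 and 9.53 in liver, 8.04, 7.32, 7.65 and 8.19 in kidney, and 6.76, 5.97, 6.99 and 6.72 in jejunum. No arrays of these organs overlapped. Liver exceeded kidney 2.28-fold, kidney exceeded jejunum 2.28-fold (both adjusted p = 1.55e-05), and jejunum exceeded the rest, whose means lay between 4.06 and 4.54. The ratio of PCK2 to PCK1 averaged -2.65 in liver, -4.02 in kidney and -4.47 in jejunum. Kidney and jejunum differed from all other arrays (exact permutation test, adjusted p = 0.019 and 0.00431), and liver lay above kidney on all arrays (0.0333).

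Fructose 1,6-bisphosphatase reverses phosphofructokinase, with FBP1 known from liver and kidney and FBP2 from muscle. FBP1 read 12.93, 12.49, 12.39 and 12.84 in kidney and 11.91, 11.75, 11.73 and 12.21 in liver. Kidney lay above all other arrays. Kidney rose 41.1-fold, liver 22.9-fold, pancreas 5.98-fold and jejunum 5.42-fold (adjusted p = 1.58e-13, 7.95e-12, 7.4e-06 and 4.06e-06). Pancreas, at 10.02, 10.31 and 10.14, could not be ordered against jejunum, at 11.07, 9.25, 10.43 and 9.38. Skeletal muscle held FBP1 at 8.01, 4.94, 5.71 and 5.20, with array 1 apart, and spleen held it at 6.64, 4.37, 4.35 and 5.85.

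FBP2 was measured at 10.80, 10.94, 10.26 and 10.74 in skeletal muscle, 8.29, 8.39, 8.96 and 8.64 in kidney, and 7.73, 7.74, 7.08 and 7.29 in jejunum. These 3 organs did not overlap. They stood 46.9-fold, 9.20-fold and 3.91-fold above the other organs (adjusted p = 1.26e-22, 3.36e-16 and 8.74e-11). Skeletal muscle exceeded kidney 4.33-fold (adjusted p = 7.16e-09). Heart, the other striated muscle, held FBP2 at 5.43, 6.43, 5.35 and 5.85. On the kidney arrays fast fibre markers averaged 3.6 to 3.9 and smooth muscle markers 4.9 to 5.7, while smooth muscle markers averaged 10.0 to 12.4 on the jejunum arrays. Their part in the FBP2 values was not tested. A further FBP2 probeset followed the first with r = 0.97 over the arrays. The ratio of FBP2 to FBP1 averaged 4.72 in skeletal muscle, 1.03 in heart and -8.09 ± 0.12 (SD, n = 4) in liver, where it lay below all other arrays (exact permutation test, adjusted p = 0.00119).

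Glucose 6-phosphatase (G6PC, listed as G6PC1 in current tables) frees glucose for release into the blood. It read 10.68, 12.26, 11.20 and 11.08 in kidney and 11.33, 10.97, 11.14 and 9.93 in liver, and these overlapped. The organs stood 114-fold and 79.6-fold above the other 9 (adjusted p = 1.46e-14 and 7.54e-14). Jejunum held G6PC at 8.64, 6.47, 8.22 and 3.60. Arrays 1 to 3 of jejunum lay above, and array 4 within, the range of the other organs (2.91 to 4.48), and the contrast for jejunum did not pass (log2 difference 1.75, adjusted p = 0.00235). Jejunum array 4 held FBP1 at 9.38 and PCK1 at 10.63.

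**Figure D4:**
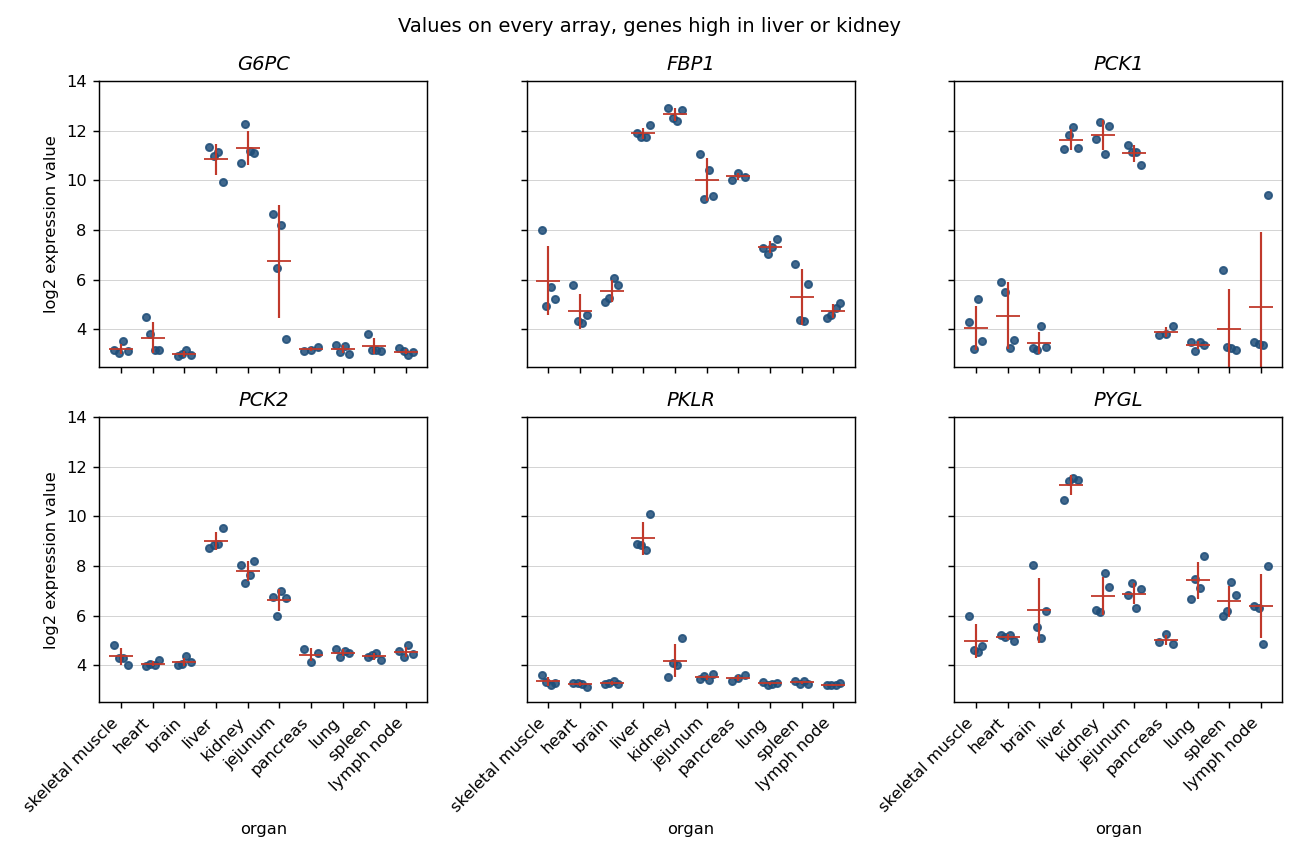
Log2 signal on each array (points, vertical axis) by organ for 6 members that were high in liver or kidney, with red horizontal lines at the organ means and red vertical lines of 1 SD on either side, n = 4 arrays an organ and 3 for pancreas, the lower SD lines of PCK1 in some organs running past the foot of the axis. The single high lymph node array of PCK1 (9.40) and the spread of G6PC over the jejunum arrays (3.60 to 8.64) are visible.

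Glycogen phosphorylase releases glucose 1-phosphate from glycogen and has muscle (PYGM), liver (PYGL) and brain (PYGB) forms. PYGM was measured at 11.06, 12.43, 12.19 and 12.63 in skeletal muscle and at 11.06, 10.40, 11.25 and 11.31 in heart. These overlapped through skeletal muscle array 1. Brain followed at 7.53, 6.23, 7.46 and 7.28, and the other organs lay at 4.95 or below. Skeletal muscle stood 131-fold and heart 57.4-fold above the other organs (adjusted p = 3.19e-23 and 6.02e-21), brain 2.89-fold (adjusted p = 3.46e-07). Brain arrays 1 and 3, which carried MYLPF, read 7.53 and 7.46, and arrays 2 and 4, with MYLPF at 3.9 and 4.1, read 6.23 and 7.28. Skeletal muscle over heart did not pass (adjusted p = 0.00921).

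PYGL read 10.65, 11.40, 11.55 and 11.44 in liver, above every other array. Liver rose 34.4-fold (adjusted p = 2.19e-12) and exceeded the next organ, lung, 14.4-fold (adjusted p = 5.97e-07). The middle organs spread widely: PYGL ran from 5.08 to 8.05 on the brain arrays and from 4.87 to 7.99 on the lymph node arrays. Skeletal muscle was lowest, at 5.98, 4.60, 4.55 and 4.76.

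PYGB, named for brain, was highest in heart. Its arrays read 10.42, 9.98, 10.82 and 9.82 in heart and 8.93, 8.72, 8.52 and 8.62 in brain, with no overlap. Heart rose 7.71-fold (adjusted p = 6.89e-12) and brain 2.32-fold (adjusted p = 8.74e-05) over the other organs, and heart exceeded brain 2.95-fold (adjusted p = 0.00019). Without the 11 arrays the heart difference was 2.97, against 2.95 with them. The rise in brain and heart over brain did not pass then (limma adjusted p = 0.0213 and 0.0176). A further probeset, dimmer at an overall mean of 4.76, was also highest in heart (7.45). Skeletal muscle held PYGB at 6.94, 6.69, 6.26 and 5.58, a log2 difference of -1.38 (adjusted p = 1.92e-05), and liver was lowest at 5.53.

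The phosphorylase ratios set liver apart. PYGM to PYGL averaged 7.11 in skeletal muscle and 5.88 in heart, whose arrays overlapped, and -7.66 in liver. PYGB to PYGL averaged 5.13 in heart, where it lay above all other arrays (exact permutation test, adjusted p = 0.0109), and -5.73 in liver, where it lay below them (0.000284). In skeletal muscle PYGB to PYGL was 1.39 ± 0.60 (SD, n = 4), and each heart array exceeded each skeletal muscle array.

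Glycogen synthase was measured weakly. GYS2, the liver form, read 6.23, 7.18, 4.66 and 4.49 in liver, above all other arrays, and the other organ means lay between 3.21 and 3.57. Liver rose 4.97-fold (adjusted p = 3.53e-10). GYS1, the form of muscle and other tissues, was highest in pancreas by its brighter probeset, at 4.73, 5.78 and 5.43 (2.90-fold, adjusted p = 4.84e-11). Its other probeset was highest in skeletal muscle at 5.28, and the probesets were uncorrelated over the arrays (r = -0.05). The organ order of GYS1 therefore depends on the probeset.

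Isozyme balance was tested for 14 of 15 pairs, the pair with LDHB being left out. Against all other arrays, 28 of 140 ratios passed at an adjusted p under 0.05 in exact permutation tests, and the smallest unadjusted p was 1.22e-05. Among all 140, whether or not they passed, an organ lay wholly above all other arrays for 6 ratios and wholly below for 5. Between liver and kidney, 12 of 14 ratios passed. All 12 were at the smallest p that 4 against 4 arrays allow, 0.0286, with 7 higher and 5 lower in liver without overlap. Between skeletal muscle and heart 0 of 14 passed after adjustment, where 7 reached that same p and had an adjusted p of 0.0571. After adjustment the smallest p passes only where enough of the 14 ratios reach it. The counts of 12 and 0 therefore do not show that the muscles were alike in isozyme balance. The 8 heart and skeletal muscle arrays did not overlap in those 7 ratios, 5 being higher and 2 lower in skeletal muscle. Scaling of an array does not enter a ratio.

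The organs differed in how many members they raised or lowered against the other 9. Skeletal muscle had 13 of 31 higher (7.77% of all genes) and 11 lower (10.1%). The higher ones were HK2, GPI, PFKM, ALDOA, TPI1, GAPDH, PGK1, PGAM2, ENO3, PKM, LDHA, FBP2 and PYGM. The lower ones included the partner isozymes HK1, PFKP, ALDOC, PGAM1, ENO1, PKLR, FBP1, PYGL and PYGB. With array 2 as the only skeletal muscle array the counts were 12 higher and 2 lower, and without the 11 arrays with foreign markers 11 and 3. The calls that ended without the 11 arrays, which leave 1 skeletal muscle array, were HK1, HK2, PFKP, ALDOC, TPI1, ENO1, PKLR, G6PC, PCK2, PYGL and PYGB. With housekeeping medians the counts were 17 and 0, since that scaling raised skeletal muscle by 1.12, and HK1, ALDOC, ENO1, PKLR and PCK2 turned to a difference above 0 that was not called.

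**Figure D5:**
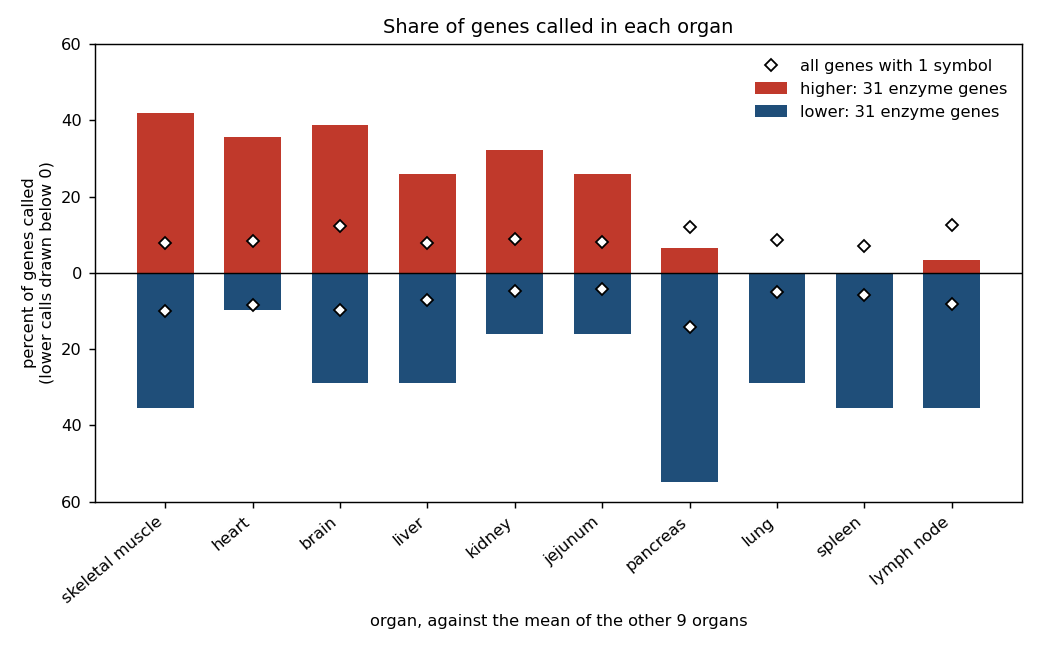
Percent of the 31 members called higher (red bars, upward) or lower (blue bars, downward) in each organ against the mean of the other 9 organs, limma at a false discovery rate of 0.001, with diamonds at the percent of all genes called the same way. Skeletal muscle had 13 higher and 11 lower calls, both shares above the diamonds, and lung and spleen had 0 higher calls.

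Heart had 11 members higher (8.24% of all genes) and 3 lower (8.38%). PKLR, FBP1 and PCK2 were the lower ones, and the split was 11 and 1 with housekeeping medians. The calls of PGK1 (adjusted p = 0.0205) and PKLR (0.0278) ended without the 11 arrays. Heart and skeletal muscle together against the other 8 organs had 14 higher (11.5% of all genes) and 10 lower (16%). The counts were 12 and 5 without the 11 arrays, and 19 and 2 with housekeeping medians. PGAM2 was 178-fold, PYGM 152-fold, ENO3 141-fold and PFKM 32.4-fold higher in this group.

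The muscles were compared directly as well. Skeletal muscle exceeded heart for 2 members (1.5% of all genes), LDHA at 2.33-fold and FBP2 at 30.3-fold (adjusted p = 2.85e-06 and 2.51e-17). It was below heart for 3 members (2.61%), HK1 by 11.1-fold, PGAM1 by 4.07-fold and PYGB by 14.9-fold (adjusted p = 2.98e-10, 1.74e-08 and 2.41e-11). None of these 5 overlapped between the organs. LDHA did not pass without the 11 arrays (adjusted p = 0.00104), nor PGAM1 with housekeeping medians (0.0104).

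Brain had 12 members higher (12.3% of all genes) and 9 lower (9.77%). The higher ones covered most steps from HK1 to PKM, with ALDOC, ENO2 and PFKM changed most. The lower ones were G6PC, FBP1, FBP2, PCK1 and PCK2 of gluconeogenesis, the muscle isozymes PGAM2 and ENO3, PKLR and LDHA. Of the gluconeogenic members PC alone was not called, at 4.97 in brain (log2 difference 0.54, adjusted p = 0.0317). Without the 11 arrays, among them brain arrays 1 and 3, 8 were higher and 7 lower. The calls that ended were TPI1, ENO1, PYGM and PYGB among the higher (adjusted p 0.00178 to 0.0213) and PKLR and G6PC among the lower (0.0375 and 0.0182). With housekeeping medians the split was 12 and 6, without ENO3, PKLR and LDHA.

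Liver had 8 members higher (7.81% of all genes) and 9 lower (7.09%), and kidney had 10 higher (8.92%) and 5 lower (4.78%). PFKP and PC in kidney did not pass without the 11 arrays (adjusted p = 0.00102 and 0.0014). Liver and kidney together against the other 8 organs had 12 higher (10.7%) and 10 lower (8.97%). In this group G6PC was 168-fold, PCK1 112-fold, FBP1 47.1-fold, PCK2 13.6-fold and PC 3.49-fold higher. The 9 members lower in liver were HK1, PFKM, ALDOA, PGAM2, ENO2, PKM, FBP2, PYGM and PYGB.

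Liver and kidney nevertheless differed. Liver exceeded kidney for 5 members (4.31% of all genes): PKLR at 30.4-fold, PYGL at 21.9-fold, GYS2 at 5.18-fold, ENO3 at 3.83-fold and PCK2 at 2.28-fold. It was below kidney for 6 (6.11%): FBP2 by 27.1-fold, PFKM by 7.71-fold, PFKP by 5.03-fold, ALDOA by 4.92-fold, PYGB by 3.10-fold and HK1 by 2.75-fold. The last 2 did not pass without the 11 arrays (adjusted p = 0.00135 and 0.00214) or with housekeeping medians (0.00174 and 0.049), and with those medians PCK2 did not pass either. G6PC, FBP1 and PCK1 were not called between the organs (adjusted p = 0.741, 0.394 and 0.954).

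Jejunum had 8 members higher (8.15% of all genes) and 5 lower (4.18%). Higher were FBP1, FBP2, PCK1 and PCK2 of gluconeogenesis and PFKL, PFKP, PGAM1 and ENO1 of glycolysis. With housekeeping medians the split was 4 higher and 6 lower, without PFKL, PGAM1, ENO1 and PCK2 among the higher.

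Pancreas had 2 members higher (11.9% of all genes), FBP1 and GYS1, and 17 lower (14.3%). Of the 17, 14 were glycolytic members from GPI to LDHA, with GAPDH, ALDOC and PKLR not among them, and the others were G6PC, PCK2 and PYGM. The calls of ENO2 and G6PC ended without the 11 arrays. The median log2 difference over all 31 members was -1.58, against -0.04 over all genes. With housekeeping medians 2 were higher and 10 lower. The measured markers of the pancreas list, all acinar cell genes, averaged 13.5 to 13.6 on the 3 pancreas arrays.

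Lung had 0 members higher (8.59% of all genes, with HK3 closest at adjusted p = 0.00162) and 9 lower (5.06%), and spleen 0 higher (6.94%) and 11 lower (5.76%). By limma, 1 member was higher in lymph node (12.4%), ENO2, and 11 were lower (8.2%). At an unadjusted limma p under 0.05, 3 members were higher in lung and 0 in spleen, and the share of all genes was not counted at that threshold. In lung, lymph node and spleen alike, the lower members included the muscle isozymes ENO3 and PYGM, G6PC, FBP2 and PCK2. The G6PC call ended in each of them when the 11 arrays were left out (adjusted p 0.00752 to 0.036), and so did those of PKLR in each, ALDOC and PCK2 in lung, and ALDOA and TPI1 in spleen (0.0018 to 0.0441). Lymph node then had 0 higher and 12 lower, and spleen 0 and 9. Lung had 5 members called without lung array 1, without lung array 3 or without the 11 arrays. With housekeeping medians the lower counts were 21 in lung, 25 in lymph node and 16 in spleen, with 0 higher in each. That scaling shifted every gene, by a mean of -0.68 in lung, -0.81 in lymph node and -0.49 in spleen. The share of all genes called with it was not counted.

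The further probesets of the members gave a second measurement. Of 34, 27 had the same highest organ as the probeset that represented the gene, and 23 had r of at least 0.8 with it over the arrays. TPI1, PGK1, ENO1, PYGB and PC each had a further probeset near background with another highest organ or a low r, and ENO1 had one that was bright and highest in kidney (10.67).

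Genes around these steps, such as glucose and glycogen regulators, were counted from a separate list, of which 48 of 53 were measured. Skeletal muscle had 26 of the 48 higher and 2 lower, heart 21 and 4, liver 14 and 4, and kidney 7 and 5. Pancreas had 5 higher and 13 lower, lung 0 and 15 by limma, spleen 1 and 14, and lymph node 2 and 11. Jejunum had 5 and 2, and brain 3 and 4. At an unadjusted limma p under 0.05, 1 of the 48 was higher in lung, with no share of all genes counted at that threshold. The adjusted counts stand beside the same shares of all genes as given for each organ.

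Named by the size of their difference, PHKG1, the catalytic subunit of muscle phosphorylase kinase, was 18.1-fold higher in skeletal muscle (9.76 ± 0.39, SD, n = 4). PFKFB1, which makes and removes the phosphofructokinase activator fructose 2,6-bisphosphate, was 23.6-fold higher in liver and 14.9-fold higher in skeletal muscle. PPP1R3C, which targets a phosphatase to glycogen, was 14.9-fold higher in heart, and SLC37A4, the glucose 6-phosphate transporter that works with G6PC, was 11.9-fold higher in kidney. HKDC1, a further hexokinase, was 7.79-fold higher in jejunum. BPGM, which makes the oxygen regulator of red cells, was 9.0-fold higher in spleen. The 2 measured of 6 listed erythroid markers averaged 7.3 to 8.2 on the spleen arrays, and their part was not tested. In pancreas UGP2, which makes UDP-glucose for glycogen, differed by -2.80 on the log2 scale.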

How the data were processed

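The authors deposited log2 values, made in Partek after correction of probe signals for sequence and GC content, with RMA background subtraction, quantile normalization of all chips and a median polish of each probeset, for 42860 probesets on 39 arrays. They left out 1 pancreas array, and the total was 39 with 0 missing values and 0 columns of other samples. RNA had been extracted with TRIzol and labelled as biotin cRNA. Scan date, a random factor in the study's model, is not in the labels and was not used here.

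Values ran from 2.61 to 14.74 and correlations between arrays of an organ from 0.889 (skeletal muscle) to 0.995 (lung). Symbols came from the probe gene table: 29254 probesets had 1 symbol, 439 several and 13167 none, and all entered the fits. Organ groups were taken from the labels. limma (version 3.58.1, R version 4.3.3) fitted a mean for each organ on all 39 arrays. Each organ was compared with the unweighted mean of the other 9, and direct contrasts came from the same fit. P-values were adjusted by Benjamini and Hochberg over all probesets within a contrast and called at 0.001. Percentages of all genes refer to 1 probeset for each of 15115 genes. Log2 ratios of isozymes were tested by two-sided exact permutation of arrays, adjusted within each family of tests and called at 0.05. In simulated data on 42860 probesets for the skeletal muscle contrast, 74 of 100 probesets changed by 1 log2 unit and 96 of 100 changed by 2 were recovered, with 0 false calls. The simulated arrays were independent, without shared animals, foreign markers or organ differences in other probesets. False calls in the deposited values were therefore not measured.

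All members are named. Of the other pathway genes, named ones came from the 2 with the largest difference in an organ. The members and the lists of genes and markers were chosen with earlier results of these data known. Alternatives covered the variance trend, the replicate number as a block, 2 scalings, a filter on dim probesets, the mean of a gene's probesets and leaving out each array. Precision is limited by the number of arrays. Probe coordinates and sequences were not used here, and hybridization of a probeset to a related isozyme was not tested.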

Additional observations from a re-analysis of the deposited data

Results flagged for a closer look

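Gaps between 1 array and the rest were tested by a gap ratio in each member and organ with 4 arrays. Of 279 such groups, 18 were past Dixon's critical value, and chance gives about 1 in 20. Among the 30 groups in the highest organ of a member, 3 were past it. ALDOA stood at 13.06 on skeletal muscle array 1, below 13.26 to 13.30 on the others. PKLR stood at 10.08 on liver array 4, above 8.65 to 8.87, and PYGL at 10.65 on liver array 1, below 11.40 to 11.55.

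A further 4 groups with a range over 1 were past the value outside the highest organ. PCK1 stood at 9.40 on lymph node array 4, against 3.36 to 3.50, and at 6.4 on spleen array 1, against 3.17 to 3.29. PYGL stood at 5.98 on skeletal muscle array 1, against 4.55 to 4.76, and ALDOC at 5.0 on jejunum array 2, against 5.92 to 6.07. The markers measured beside PCK1 on those lymph node and spleen arrays are given in the report, and their part was not tested.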

How the results depend on the processing

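For each member in its highest organ against the other 9, direction and call were kept in most alternatives. Over all calls of an organ more were lost. With housekeeping medians, skeletal muscle lost 11 calls and kept 13, and pancreas lost 7 and kept 12. Calls that ended without the 11 arrays are named with the organ counts. Equal medians of 12 of 15 housekeeping genes gave 21 calls in lung (9 before), 25 in lymph node (12) and 12 in pancreas (19), and turned HK3 in lung from 0.35 to -0.41, with neither called. That scaling shifted organs by -0.81 (lymph node) to 1.12 (skeletal muscle), alike for every gene. Shares of all genes were counted in the main fit only. Leaving out the 11 arrays with foreign markers gave 5 calls in lung, 14 in skeletal muscle (24 before) and 8 of 140 isozyme ratios (28 before), fewer arrays raising the smallest p. Skeletal muscle array 2 alone gave 14 calls in skeletal muscle. Both were chosen after seeing the data. With each array left out in turn, calls ranged from 5 to 11 in lung, the lowest without lung replicate 1 or 3, and from 17 to 25 in skeletal muscle. Isozyme ratios between skeletal muscle and heart ranged from 0 to 9 calls, the highest without skeletal muscle replicate 1. The other 738 counts moved by less than 1.5 times. Arrays of the same number in different organs deviated together weakly, but more than the others. The median r was 0.14 over 171 same-number pairs and -0.05 over 513 pairs of different number. Of the same-number pairs 59.1% were above 0.1, against 13.6% of the others. The labels do not say what the numbers mark, so the main tests left pairing out. Whether a number marks a dog was not settled. With the replicate number as a block, calls were 30 by the F test, 25 in skeletal muscle, 12 in lung and 7 between skeletal muscle and heart, and no count moved by over 1.5 times. Signal near background limits HK2, HK3, GAPDH, GYS1, GYS2 and PC.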
